A study of Arabidopsis thaliana with 18 samples.

Results

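The comparison set ros1-3 seedlings against ros1-4 seedlings of Arabidopsis thaliana, both treated with the hormone abscisic acid (ABA). The 2 lines carry different mutant alleles of ROS1. The members were chosen by their labels, as the 3 ros1-3 ABA libraries and the 3 ros1-4 ABA libraries, which are 6 of the 18 libraries of messenger RNA sequenced. Each library came from a pool of 5 whole seedlings, 12 d old, kept for 6 h in water with 50 µM ABA. The other 12 libraries were 3 each of wild type with ABA and of ros1-3, ros1-4 and wild type kept in water with the solvent alone (mock). The replicates are called biological in the labels, with no word on separate sowings or treatment days, so a p-value here measures how much these pools varied. The labels give neither the kind of mutation in each allele nor the accession in which it arose.

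ROS1 is a DNA glycosylase that cuts 5-methylcytosine out of DNA, which lets unmethylated cytosine be put back and keeps some genes from being silenced. Methylation is written by MET1, CMT3 and the RNA-directed pathway, and the balance of both sides sets the level at many loci near transposons. ABA is made under water shortage. It is bound by PYR/PYL receptors, which then inhibit PP2C phosphatases, so that SnRK2 kinases activate transcription factors of the ABF family and these switch on protective genes such as dehydrins.

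The ros1-3 ABA libraries were the shallowest, at 4271674 to 4647380 counted reads, against 5591376 to 8824719 for ros1-4 ABA and 6998339 to 9326824 for wild type ABA. Multiply aligned reads made 5.6% to 7.48% of each file in ros1-3 ABA and 3.86% to 4.46% in ros1-4 ABA, with no overlap; depth, this share and the allele cannot be told apart over these 6 libraries. Levels are given as CPM, reads scaled by library size and by the trimmed mean of M values (TMM). Among principal components of log2 CPM, the first held 66.9% of the variance and parted ABA from mock. The second held 5.78% and placed ros1-3 ABA at -23.2 to -17.2 and ros1-4 ABA at 6.4 to 19.6, where replicate 1 of ros1-4 stood apart at 19.6. The labelled tissue was checked against marker lists. Summed photosynthesis transcripts ran from 93300 to 111000 CPM in ros1-3 ABA and from 104000 to 121000 CPM in ros1-4 ABA. Summed root markers ran from 89.2 to 99.0 CPM in ros1-3 ABA and from 94.6 to 106 CPM in ros1-4 ABA. The list of seed storage and oil body genes summed to 22.1 to 23.6 CPM in ros1-3 ABA and 14.5 to 20.4 CPM in ros1-4 ABA. Of it EM6 had 20.4 CPM in ros1-3 ABA and 15.3 CPM in ros1-4 ABA, while CRA1 and CRC were at 0 counts in all 6 libraries. In whole seedlings, fewer cells of a type and less RNA per cell cannot be told apart.

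ROS1 itself still gave reads in both lines. In the TAIR10.1 annotation the gene (AT2G36490) lies on the minus strand of chromosome 2 at 15307907 to 15314807. It measured 47.3, 56.0 and 58.3 CPM in ros1-3 ABA, 35.5, 39.1 and 47.6 CPM in ros1-4 ABA, and 96.5, 108 and 120 CPM in wild type ABA. Both alleles lay below every wild type library, while the highest ros1-4 library overlapped the lowest ros1-3 library. Differences are log2 fold changes of ros1-3 over ros1-4, called where edgeR's quasi-likelihood test gave a p, adjusted by Benjamini and Hochberg over all tested genes, under 0.05. For ROS1 it was 0.40 (SE 0.12, edgeR adjusted p = 0.0704), which did not pass. Without ros1-4 ABA replicate 3 it was 0.53 (edgeR adjusted p = 0.0242), which did. In mock ROS1 had 51.2, 53.4 and 57.7 CPM in ros1-3, 38.4, 31.5 and 33.5 CPM in ros1-4 and 94.6, 82.6 and 86.1 CPM in wild type. There the alleles did not overlap and the call was made (log2 0.64, SE 0.12, edgeR adjusted p = 0.00657). A read count over the whole gene does not say whether the transcript is intact.

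With ABA, the alleles differed at 442 of 15853 tested genes (2.79%), of which 201 were higher in ros1-3 than in ros1-4 (1.27%) and 241 lower (1.52%). Most differences were small: the median absolute log2 fold change of the called genes was 0.61, and 97 genes differed by 2-fold or more, 50 of them higher and 47 lower in ros1-3. A difference of 4-fold or more was fitted for 13 higher and 17 lower genes. In 440 of the 442, the 3 libraries of one allele did not overlap those of the other. The same held for 2985 of the 15411 genes not called. Overlap and call rest on the same values, so the count of 440 adds no separate support. Of the called genes, 108 overlap another annotated locus. The share of such loci over all tested genes was not counted, so 108 is no trait of the called genes. The count of 442 moved with single libraries, to 219, 266 and 199 without ros1-3 ABA replicates 1, 2 and 3. It was 254, 351 and 312 without ros1-4 ABA replicates 1, 2 and 3. A fit with that share of multiply aligned reads as a covariate called 267 genes, of which 225 were among the 442.

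The called genes were crowded on chromosome 2, the chromosome of ROS1. It held 135 of them among 2402 tested genes (5.62%), 58 higher and 77 lower in ros1-3, against 307 of 13451 tested genes (2.28%) in the rest of the genome. The other chromosomes ranged from 1.82% on chromosome 1 to 2.54% on chromosome 4. Chromosome 2 carried 30.5% of all calls with 15.2% of the tested genes, and 45 of the 97 differences of 2-fold or more. Within it, 95 of the 135 calls lay in 1 stretch. From -6 to 0 Mb of the ROS1 start, where minus means lower coordinates, 95 of 879 tested genes were called (10.8%), 42 higher and 53 lower, against 347 of 14974 (2.32%) elsewhere. This stretch was drawn after the values were seen, so the shares are a description. In steps of 2 Mb, the called share was 4.65% from -14 to -12 Mb (4 of 86), 6.06% from -12 to -10 Mb (2 of 33), 1.63% from -10 to -8 Mb and 4.35% from -8 to -6 Mb, then 14.4%, 8.3% and 10.1% in the steps up to ROS1, and 2.71% and 1.58% in the next steps beyond it. Without single libraries the count in the stretch was 58 to 73, and it was 60, 62 and 58 without ros1-3 ABA replicates 1, 2 and 3. For the whole of chromosome 2 it was 74 to 105, with 85 and 74 without ros1-3 ABA replicates 1 and 3. The part of sequence inherited together with either allele was not tested.

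**Figure D1:**
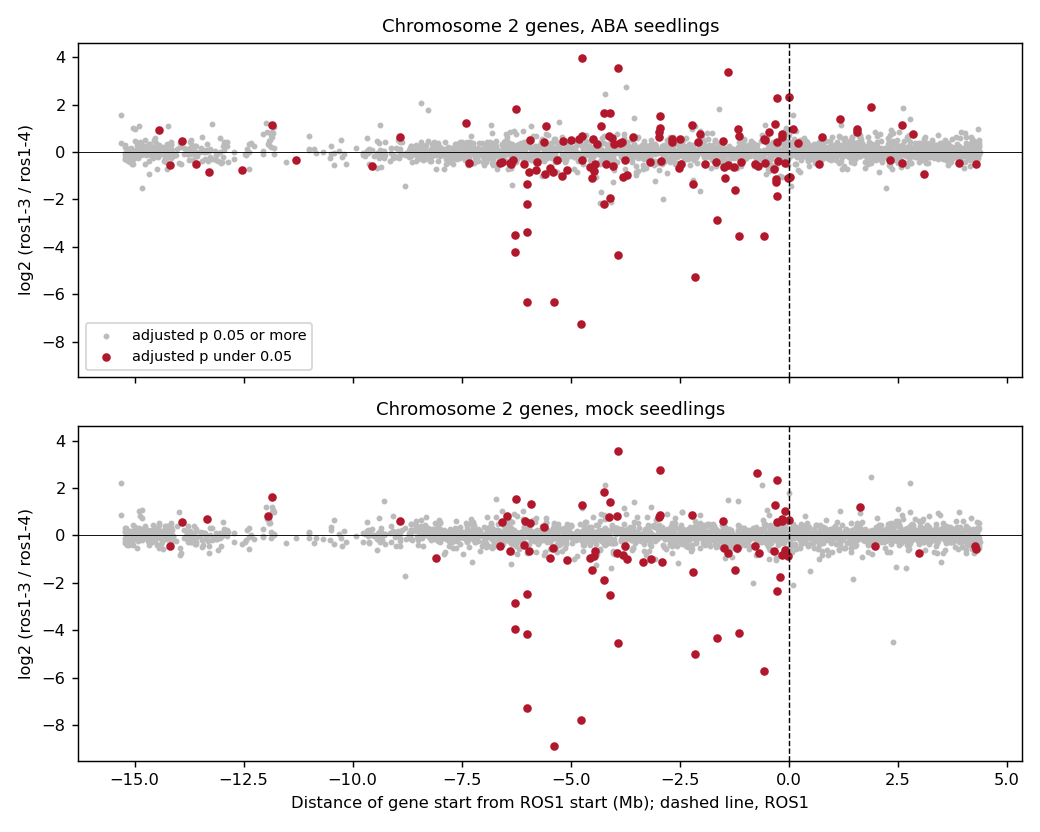
Log2 fold change of ros1-3 over ros1-4 for the tested genes of chromosome 2 by the distance of their start from that of ROS1 in Mb, with ABA (top) and in mock (bottom). Red points passed an adjusted p under 0.05, and they gather between -6 and 0 Mb in both treatments; fitted values of genes with no count in 1 group depend on the fit's prior count.

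Of the 15 genes named for the largest falls in ros1-3, 12 lay on chromosome 2, all at lower coordinates than ROS1. Against wild type ABA, all 15 were called lower in ros1-3 and none was called in ros1-4, where the fitted log2 changes ran from -0.89 to 0.50. Over all tested genes 1.72% were called between ros1-3 and wild type ABA and 0.681% between ros1-4 and wild type ABA. Both contrasts reuse the ABA libraries by which the 15 were chosen, so they are no independent evidence. SEH (AT2G26740, chromosome 2 at 11392849 to 11394363, -3.92 Mb from ROS1) encodes a soluble epoxide hydrolase, an enzyme that opens fatty acid epoxides. It had 24.8, 24.6 and 30.7 CPM in ros1-3 ABA, 660, 450 and 502 CPM in ros1-4 ABA and 547, 460 and 449 CPM in wild type ABA. The ros1-3 libraries were all more than 10-fold below the others. The log2 fold change was -4.33 (SE 0.15, edgeR adjusted p = 1.11e-14), and against wild type ABA it was -4.18 in ros1-3 and 0.15 in ros1-4.

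Further genes below ROS1 gave almost no reads in ros1-3. AT2G24755, an RNA gene at -4.77 Mb that overlaps AT2G24760 on the opposite strand, had no count in the 3 ros1-3 ABA libraries and 70 in ros1-4 ABA, at least 14.8-fold lower by a floor of 3 counts over the group. AT2G21840, a gene of the cysteine and histidine-rich C1 domain family, had no count in ros1-3 ABA against 37 in ros1-4 ABA, at least 7.82-fold lower. AT2G23330, an uncharacterized gene, had 1 count in ros1-3 ABA and 168 in ros1-4 ABA, a ratio of 106 in favour of ros1-4 (exact 95% counting interval 18.9 to 4230). AT2G30945, another RNA gene, had 1 count in ros1-3 ABA and 79 in ros1-4 ABA, a ratio of 50.1 (8.73 to 2000). GLTP1, a glycolipid transfer protein, had 3 counts in ros1-3 ABA and 60 in ros1-4 ABA, a ratio of 12.7 (4.14 to 63.2). Floors and intervals use counts pooled over the 3 libraries of a group, so they cover counting error only and leave out variation between pools. No molecular identifiers are described for the reads, so copies of 1 molecule may be counted more than once.

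The rest of the falls kept measurable reads. AT2G21080 (-6.26 Mb) had 0.487, 0.664 and 0.221 CPM in ros1-3 ABA, 9.41, 8.9 and 8.63 CPM in ros1-4 ABA and 9.52, 9.21 and 8.39 CPM in wild type ABA, where ros1-3 stood apart (log2 -4.23, SE 0.30, edgeR adjusted p = 5.39e-09). Its close neighbour AT2G21045 fell by 3.51 on the log2 scale. TO1, a mitochondrial thioredoxin, fell by 3.56 with a ros1-3 mean of 0.391 ± 0.294 CPM and a ros1-4 mean of 4.76 ± 0.413 CPM (SD, n = 3 each). AT2G21850 and AT2G21860, which overlap on opposite strands and so may share reads here, fell by 3.39 and 2.21. AT2G32140, annotated as a transmembrane receptor, fell by 2.89. These 12 genes sit between -6.28 and -0.554 Mb of ROS1, and each was also called lower in ros1-3 in mock.

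Away from chromosome 2, 3 of the 15 fell as far. MAF5 (AT5G65080) belongs to a tandem family of MADS-box genes related to the flowering repressor FLC, whose near copies may share reads. It had 0.731, 0.664 and 1.32 CPM in ros1-3 ABA, 8.84, 9.64 and 5.51 CPM in ros1-4 ABA and 14.8, 13.1 and 15.6 CPM in wild type ABA, a fall of the ros1-3 level (log2 -3.07, SE 0.49, edgeR adjusted p = 0.000688). The groups did not overlap, and ros1-4 lay below wild type. AT3G06125, an RNA gene on chromosome 3, had 1.81 ± 0.378 CPM in ros1-3 ABA, 13.8 ± 1.84 CPM in ros1-4 ABA and 14.5 ± 2.35 CPM in wild type ABA (SD, n = 3 each). CYP706A1, a cytochrome P450 gene on chromosome 4, had 11.8 ± 2.09 CPM in ros1-3 ABA, 54.8 ± 13.3 CPM in ros1-4 ABA and 41.6 ± 10.5 CPM in wild type ABA (SD, n = 3 each).

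The 15 genes named for the largest rises in ros1-3 were spread more widely, with 3 on chromosome 2, and they fell into different patterns relative to wild type. AT2G35810 (chromosome 2 at 15048885 to 15050323, -0.259 Mb), annotated as a ureidoglycolate hydrolase of purine breakdown, was high in ros1-3 alone. It had 134, 122 and 122 CPM in ros1-3 ABA, 26.8, 25.6 and 25.1 CPM in ros1-4 ABA and 23.3, 26.9 and 29.5 CPM in wild type ABA. The log2 fold change was 2.29 (SE 0.12, edgeR adjusted p = 2.26e-11).

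In PRP2, CYP71B23 and AT3G18560 it was ros1-4 that stood apart. PRP2 (AT2G21140), a proline-rich cell wall protein at -6.25 Mb, had 130, 126 and 137 CPM in ros1-3 ABA, 41.2, 35 and 36.8 CPM in ros1-4 ABA and 142, 135 and 101 CPM in wild type ABA (log2 1.80, SE 0.17, edgeR adjusted p = 5.95e-07). CYP71B23 (AT3G26210), a cytochrome P450, had 17.5, 20.1 and 13.5 CPM in ros1-3 ABA, 3.28, 2.41 and 1.92 CPM in ros1-4 ABA and 25.2, 21.9 and 15.6 CPM in wild type ABA (log2 2.75, SE 0.26, edgeR adjusted p = 5.25e-07). The uncharacterized AT3G18560 had 25.1 ± 2.13 CPM in ros1-3 ABA, 7.73 ± 0.215 CPM in ros1-4 ABA and 27.0 ± 6.53 CPM in wild type ABA (SD, n = 3 each). In all 3 genes the range of the ros1-3 libraries overlapped that of wild type.

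In another pattern ros1-3 lay between ros1-4 and wild type. AT1G62760, an invertase and pectin methylesterase inhibitor, had 2.44, 1.77 and 3.97 CPM in ros1-3 ABA, 0.143, 0.185 and 0.12 CPM in ros1-4 ABA and 13.8, 11 and 11.8 CPM in wild type ABA. That was 36 counts in ros1-3 ABA over 3 in ros1-4 ABA, a ratio of 18.9 (exact 95% counting interval 5.98 to 96.1). MSRB5, a reductase that repairs oxidized methionine in proteins, had 10.5, 6.42 and 11.3 CPM in ros1-3 ABA, 1.57, 2.04 and 2.52 CPM in ros1-4 ABA and 20.3, 22.2 and 18.4 CPM in wild type ABA (log2 2.17, SE 0.30, edgeR adjusted p = 0.000113). The 3 groups of each gene did not overlap.

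**Figure D2:**
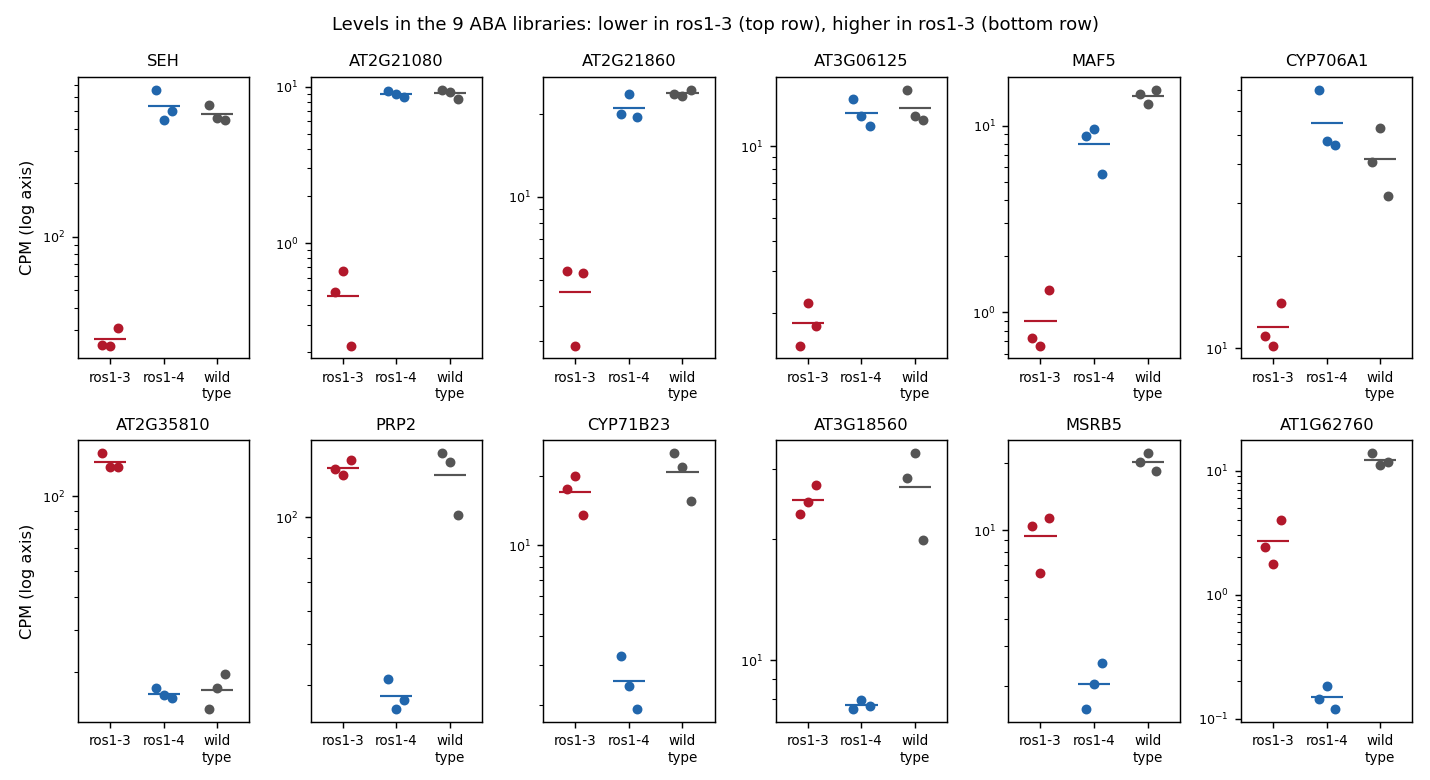
CPM on log axes in each of the 9 ABA libraries, with ros1-3, ros1-4 and wild type from left to right; points are libraries and lines are means of 3. The top row holds genes lower in ros1-3, such as SEH at 24.6 to 30.7 CPM; the bottom row holds genes higher in ros1-3 than in ros1-4, where wild type lies near ros1-4 (AT2G35810), near ros1-3 (PRP2) or above both (MSRB5).

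The remaining rises were AK3, BCAT4, CYP79F1 and TT8, described with their pathways, EPF2 with the stomatal genes, and AT4G33720, AT1G48690, M10 and AT5G45840, which depended on single libraries. AT4G33720, a CAP domain gene, had 15.2 ± 6.82 CPM in ros1-3 ABA and 2.16 ± 1.12 CPM in ros1-4 ABA (SD, n = 3 each; log2 2.72, edgeR adjusted p = 0.0242). Its call was lost without ros1-3 ABA replicate 2 (edgeR adjusted p = 0.142) and without ros1-4 ABA replicates 1, 2 or 3 (0.0755, 0.0696 and 0.0531). AT1G48690, a GH3 family gene (log2 1.93), lost its call without ros1-3 ABA replicates 1 or 3 (edgeR adjusted p = 0.0656 and 0.0836) and without ros1-4 ABA replicates 2 or 3 (0.055 and 0.0632). M10, a late embryogenesis abundant protein gene (log2 1.89), lost it without ros1-3 ABA replicate 3 (edgeR adjusted p = 0.07) and without ros1-4 ABA replicate 3 (0.0518). AT5G45840, a receptor kinase gene (log2 1.82), lost it without ros1-3 ABA replicate 3 (edgeR adjusted p = 0.0563).

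Wild type levels were not used to choose the called genes, apart from entering the shared estimate of spread, and were set beside both alleles on the log2 scale with 0.1 CPM added. With ABA, wild type was nearer to ros1-4 than to ros1-3 in 316 of the 442 called genes (71.5%). In the stretch from -6 to 0 Mb of ROS1 this held for 87 of 95 genes (91.6%), and elsewhere for 229 of 347 (66.0%). Mock libraries, which like wild type entered the call only through the shared estimate of spread, gave 81 of 95 genes (85.3%) in the stretch and 230 of 347 (66.3%) elsewhere. The share over all tested genes was not counted, so these shares cannot be read as a trait of the called genes. On the second principal component wild type ABA stood at 7.36 to 10.2, within the range of ros1-4 ABA. On the third, which held 3.74% of the variance, wild type ABA stood at 11.28 to 17.21. There ros1-4 ABA stood apart at -19.76 to -6.375, and ros1-3 ABA lay nearer to wild type, at -0.9305 to 0.7986. Over all tested genes, 273 were called between ros1-3 and wild type with ABA (1.72%) and 108 between ros1-4 and wild type (0.681%), contrasts that share the wild type libraries. The first count was 169, 155 and 138 without ros1-3 ABA replicates 1, 2 and 3 and 158 and 146 without wild type ABA replicates 2 and 3, and the second was 65 without wild type ABA replicate 3.

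Most genes called with ABA leaned the same way without the hormone. In mock, with no library in common, 201 of the 15853 genes were called between ros1-3 and ros1-4 (1.27%), 84 higher and 117 lower. That count was 116 and 120 without ros1-3 mock replicates 1 and 3 and 126 without ros1-4 mock replicate 2. Of the 442 genes called with ABA, 402 (91.0%) had the same sign in mock, against 64.1% of the genes not called with ABA. Called in both were 121 genes, which is 27.4% of the ABA calls and 60.2% of the mock calls, and each had the same direction in both. The log2 fold changes of the 442 genes with ABA and in mock had a Pearson r of 0.869, and those of all tested genes 0.464; genes are no independent replicates, so this is a description. On chromosome 2, 58 of 135 ABA calls were also called in mock (43.0%), and on the other chromosomes 63 of 307 (20.5%). The 15 largest falls were all called in mock too, and of the 15 largest rises 7 were.

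**Figure D3:**
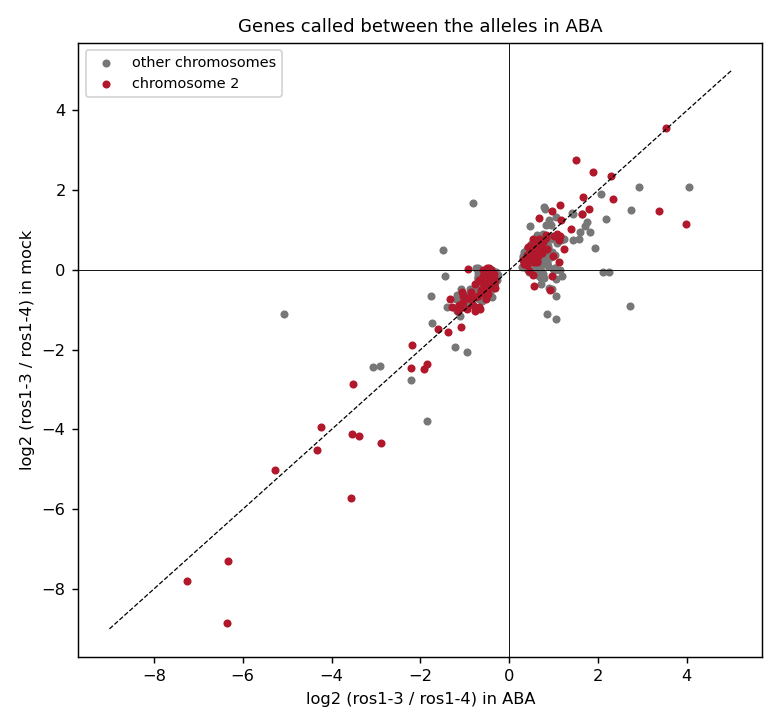
Log2 fold change of ros1-3 over ros1-4 with ABA (x axis) and in mock (y axis) for the 442 genes called with ABA; red points are on chromosome 2 and the dashed line marks equal values. Most points have the same sign on both axes, and a group of rises with ABA lies near 0 in mock.

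A test of the difference between the 2 contrasts, the interaction of allele and hormone, called 1 gene of 15853 (0.00631%), with 691 genes at an unadjusted p under 0.05 and 8 calls by DESeq2. The gene was ZW9 (AT1G58270), which encodes a TRAF-like protein. It had 124, 137 and 111 CPM in ros1-3 ABA, 74.6, 58.4 and 66.3 CPM in ros1-4 ABA and 352, 331 and 290 CPM in wild type ABA. In mock it had 14.7, 19.4 and 18.4 CPM in ros1-3, 24.7, 24.2 and 23.0 CPM in ros1-4 and 81.3, 79.7 and 98.4 CPM in wild type. So ros1-3 was above ros1-4 with ABA (log2 0.89, SE 0.11, edgeR adjusted p = 3.86e-05), and in mock its libraries lay below those of ros1-4 without overlap (log2 -0.46, SE 0.15, edgeR adjusted p = 0.162), which did not pass. The log2 difference of differences was 1.36 (SE 0.19, edgeR adjusted p = 0.00557). Both alleles lay below every wild type library in both treatments.

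Among ABA-responsive genes, 5 of 25 tested members were called, each of them higher in ros1-3, and none lower, against 1.27% of all tested genes higher and 1.52% lower; DESeq2 called 7. The list's median log2 fold change was 0.344, against 0.005 over all tested genes, and 23 of 25 members were above 0, against 8087 of 15853 genes. RD20, a caleosin of lipid droplets and a marker of drought response, had 239, 348 and 276 CPM in ros1-3 ABA, 162, 154 and 129 CPM in ros1-4 ABA and 206, 132 and 120 CPM in wild type ABA. The alleles did not overlap, and the log2 fold change was 0.96 (SE 0.16, edgeR adjusted p = 0.000969). NAC019, a stress transcription factor, had 215, 237 and 232 CPM in ros1-3 ABA and 161, 165 and 138 CPM in ros1-4 ABA (log2 0.56, SE 0.13, edgeR adjusted p = 0.0154). The dehydrins ERD14 and ERD10 had log2 fold changes of 0.85 (edgeR adjusted p = 0.0177) and 0.41 (0.0272), and the fifth called member, ATHB12, a homeodomain factor named after its value was seen, had 0.34 (0.0301). The dehydrin COR47 did not pass by edgeR, at 3260 CPM in ros1-3 ABA and 2490 CPM in ros1-4 ABA (log2 0.39, edgeR adjusted p = 0.0779). RAB18 stood at 238 CPM in ros1-3 ABA and 212 CPM in ros1-4 ABA (log2 0.17). The list's summed level was 10700 to 11400 CPM in ros1-3 ABA, 7700 to 9310 CPM in ros1-4 ABA and 8600 to 10500 CPM in wild type ABA. The count of 5 was 3, 3 and 2 without ros1-3 ABA replicates 1, 2 and 3, and 3 and 1 without ros1-4 ABA replicates 2 and 3. RD20 kept its call when any 1 of the 6 libraries was left out. ERD10 lost it in 5 of these 6 fits, with an edgeR adjusted p of 0.0767 to 0.129, and kept it without ros1-4 ABA replicate 1. ATHB12 lost it without ros1-3 ABA replicates 1 or 3 and ros1-4 ABA replicates 1 or 3 (edgeR adjusted p = 0.112, 0.154, 0.0678 and 0.127). NAC019 lost it without ros1-3 ABA replicates 2 or 3 and ros1-4 ABA replicate 3 (edgeR adjusted p = 0.0682, 0.0685 and 0.0801). ERD14 lost it without ros1-3 ABA replicate 2 and ros1-4 ABA replicates 2 or 3 (edgeR adjusted p = 0.14, 0.06 and 0.0829). RD20, ERD10 and ERD14 have 2 transcript models each, whose shared reads the counts leave out. In mock no member was called by edgeR, and the list's median was 0.149. There 19 of 25 members were above 0, against 8030 of 15853 genes. No member was called for the interaction of allele and hormone, so a larger allele difference with ABA than in mock was not shown for any of them.

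The sequences before the starts of 3 of these genes are shown for the core letters of the element that ABF factors are known to bind. For each, the 250 bases before the annotated start were read from the TAIR10.1 genome of RefSeq on the gene's strand, 5′ to 3′. Capitals mark the letters ACGTG or CACGT, the core of the ABA-responsive element on either strand, which join where matches overlap. RD20 is chr2:14146556-14146805, NAC019 chr1:19698483-19698732 and ERD14 chr1:28587932-28588181, all on the minus strand.
RD20: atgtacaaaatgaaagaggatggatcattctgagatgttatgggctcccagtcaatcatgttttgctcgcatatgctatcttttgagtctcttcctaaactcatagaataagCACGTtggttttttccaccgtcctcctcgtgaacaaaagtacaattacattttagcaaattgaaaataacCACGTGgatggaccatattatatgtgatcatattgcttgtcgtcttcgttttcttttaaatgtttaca
NAC019: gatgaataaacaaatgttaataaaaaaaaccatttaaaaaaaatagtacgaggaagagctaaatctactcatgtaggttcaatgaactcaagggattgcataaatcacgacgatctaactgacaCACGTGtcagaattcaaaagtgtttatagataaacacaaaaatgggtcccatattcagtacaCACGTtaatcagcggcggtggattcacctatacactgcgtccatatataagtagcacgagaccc
ERD14: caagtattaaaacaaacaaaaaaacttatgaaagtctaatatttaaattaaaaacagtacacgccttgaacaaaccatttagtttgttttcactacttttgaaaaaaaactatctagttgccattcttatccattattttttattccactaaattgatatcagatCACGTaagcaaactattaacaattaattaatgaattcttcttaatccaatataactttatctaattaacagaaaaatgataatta

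RD20 and NAC019 each hold 3 matches by letters, the pair that overlaps in CACGTG and a single one, and ERD14 holds 1. The windows of ERD10 and ATHB12 hold these letters nowhere. Among the 25 tested ABA-responsive genes, 14 windows hold a match (56.0%), against 3803 of 15841 windows of tested genes with a placed start (24.0%). A match is a description of the letters and no measure of binding.

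Of the genes that sense and relay ABA, 8 PP2C phosphatases, 8 PYR/PYL receptors and 7 ABA kinases and transcription factors were tested. None was called by edgeR in either direction, which for so few genes is near the 2.79% of all tested genes. The median log2 fold changes of the 3 lists were 0.17, -0.103 and -0.03. Without single libraries the receptor median ran from -0.182 to -0.0202 and that of the kinases and factors from -0.0392 to 0.103. At an unadjusted p under 0.05 in edgeR the 3 lists held 3, 1 and 0 genes, and DESeq2 called 1, ABI1. ABI1, a phosphatase that holds the pathway off, had 662 ± 12.2 CPM in ros1-3 ABA and 566 ± 45.4 CPM in ros1-4 ABA (SD, n = 3 each; log2 0.23, edgeR adjusted p = 0.118); its adjusted p by DESeq2 was 0.0379. The receptor PYL5 had 16.9 CPM in ros1-3 ABA and 22.4 CPM in ros1-4 ABA, with a log2 value of -0.41 (edgeR adjusted p = 0.263). The factor ABI5, whose gene lies -0.103 Mb from ROS1, had 21.3 ± 3.91 CPM in ros1-3 ABA and 16.6 ± 3.66 CPM in ros1-4 ABA (SD, n = 3 each). Of 8 tested genes of ABA metabolism, 1 rose and 1 fell, against 1.27% of all tested genes higher and 1.52% lower. CYP707A4, an ABA 8′-hydroxylase that starts ABA breakdown, had 14.9, 12.4 and 13 CPM in ros1-3 ABA and 5.56, 6.86 and 6.95 CPM in ros1-4 ABA (log2 1.05, SE 0.21, edgeR adjusted p = 0.00755). It missed the threshold without ros1-3 ABA replicate 1 (0.053). NCED2, of the dioxygenase family that makes the ABA precursor, had 6.55 ± 0.51 CPM in ros1-3 ABA and 11.5 ± 2.6 CPM in ros1-4 ABA (log2 -0.82, edgeR adjusted p = 0.0445). The call was lost without any of ros1-3 ABA replicates 1, 2 or 3 and ros1-4 ABA replicates 1 or 3 (edgeR adjusted p = 0.119, 0.112, 0.178, 0.21 and 0.0829). By DESeq2 the adjusted p of NCED2 was 0.101, so that CYP707A4 was the 1 gene of this list it called.

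Among the genes that write or erase DNA methylation, none was called between the alleles with ABA by edgeR or DESeq2. For so few genes that is near the 2.79% of all tested genes called by edgeR. The tested members were 5 of active demethylation, 8 of methylation maintenance and 11 of the RNA-directed pathway, with median log2 fold changes of 0.0321, 0.353 and 0.152; 1, 1 and 2 of them had an unadjusted p under 0.05 in edgeR. Without single libraries the demethylation median ran from -0.032 to 0.149, and that of the RNA-directed pathway was 0.0109 without ros1-4 ABA replicate 1. MET1, the maintenance methyltransferase, had 21.2, 23.9 and 30.2 CPM in ros1-3 ABA, 14, 17.8 and 21.6 CPM in ros1-4 ABA and 17.8 ± 1.65 CPM in wild type ABA (SD, n = 3). The allele groups overlapped, and the log2 value was 0.49 (SE 0.17, edgeR adjusted p = 0.123). In mock MET1 was called, at 43.4 ± 6.82 CPM in ros1-3 and 28.0 ± 2.2 CPM in ros1-4 (log2 0.63, edgeR adjusted p = 0.0483). Of the other members, DML2, a relative of ROS1, had a log2 value of 0.40 (edgeR adjusted p = 0.326), and DMS3 of the RNA-directed pathway had 0.40 (0.257). Summed maintenance transcripts were 76.2 to 96.9 CPM in ros1-3 ABA, 54.6 to 75.9 CPM in ros1-4 ABA and 61.1 to 75.9 CPM in wild type ABA. Cell cycle genes, which dividing cells express together with MET1, had 10 of 11 tested members above 0 and a median of 0.346, with none called by edgeR or DESeq2 and 3 at an unadjusted p under 0.05; the median was 0.191 without ros1-4 ABA replicate 1. Their summed level was 331 to 346 CPM in ros1-3 ABA and 247 to 323 CPM in ros1-4 ABA. The part of dividing cells in the maintenance values was not tested.

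EPF2 and NIC3 are known from earlier work as genes whose expression needs ROS1. For NIC3 that work may rest on these samples, so its values here are no independent evidence. EPF2 (AT1G34245) encodes a secreted peptide that limits how many cells enter the stomatal lineage. It had 2.19, 2.66 and 1.1 CPM in ros1-3 ABA, 0.285, 0 and 0.36 CPM in ros1-4 ABA and 6.19, 4.08 and 5.69 CPM in wild type ABA. The 3 groups did not overlap, and the log2 fold change between the alleles was 2.93 (SE 0.58, edgeR adjusted p = 0.00591). In mock it was 2.07 (SE 0.41, edgeR adjusted p = 0.00776). The gene TMM (AT1G80080), for a receptor-like protein that works with the EPF receptors, was lower in ros1-3, at 60.2, 62.2 and 61.1 CPM in ros1-3 ABA, 83.3, 86.2 and 90.7 CPM in ros1-4 ABA and 37.9, 34.6 and 30.9 CPM in wild type ABA. Its log2 value was -0.50 (SE 0.10, edgeR adjusted p = 0.0061), with no overlap, and the covariate fit gave -0.37 (edgeR adjusted p = 0.087). For both genes ros1-3 lay between ros1-4 and wild type. The other 10 tested genes of the stomatal lineage were not called. Over all tested genes 1.27% were called higher and 1.52% lower. The median of the stomatal list was -0.003. FAMA, which ends the divisions of guard mother cells and promotes guard cell identity, had 34.9 CPM in ros1-3 ABA and 41.5 CPM in ros1-4 ABA (log2 -0.26). NIC3 (AT5G23220), a nicotinamidase of NAD salvage, had 7.06, 7.31 and 6.4 CPM in ros1-3 ABA, 12.4, 8.16 and 13.3 CPM in ros1-4 ABA and 31.2, 36.1 and 32.8 CPM in wild type ABA. With ABA both alleles were far below wild type, and between them the log2 value was -0.73 (SE 0.25, edgeR adjusted p = 0.122). Of 6 tested genes of NAD synthesis 0 were called by edgeR or DESeq2, with 2 at an unadjusted p under 0.05 in edgeR. For so few genes that is near the 2.79% of all tested genes called by edgeR. With no filter on low counts, NIC3 reached an edgeR adjusted p of 0.0496 between the alleles with ABA. In mock it had 4.84 ± 0.573 CPM in ros1-3, 6.48 ± 1.8 CPM in ros1-4 and 4.96 ± 2.25 CPM in wild type (SD, n = 3 each). There both alleles overlapped wild type, so the low NIC3 level of the alleles was seen with ABA only.

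Aliphatic glucosinolates are sulfur compounds that crucifers make from methionine against herbivores. Of 13 tested genes on the list of glucosinolate synthesis and breakdown, 3 rose and 1 fell, against 1.27% and 1.52% of all tested genes, and the other 9 were not called. The list's median was 0.24, and leaving out single libraries moved it to between 0.111, without ros1-4 ABA replicate 1, and 0.37, without ros1-4 ABA replicate 3. MAM1, which lengthens the side chain, had 261, 174 and 200 CPM in ros1-3 ABA, 50.9, 97.2 and 66.4 CPM in ros1-4 ABA and 123, 111 and 75.8 CPM in wild type ABA (log2 1.58, SE 0.20, edgeR adjusted p = 4.39e-05). CYP79F1, which turns the lengthened methionine into an aldoxime, had 42.1, 28.6 and 38.0 CPM in ros1-3 ABA, 5.28, 12.2 and 8.99 CPM in ros1-4 ABA and 16.2, 16.2 and 8.39 CPM in wild type ABA (log2 2.06, SE 0.27, edgeR adjusted p = 6.71e-05). It has a near copy next to it, CYP79F2, and reads may have been split between them. CYP83A1, the next enzyme, had a log2 value of 1.04 (edgeR adjusted p = 0.00337). In each of the 3 genes the ros1-3 libraries lay above those of ros1-4 without overlap, with wild type between the means. TGG2, a myrosinase that breaks glucosinolates down, fell to 147 ± 11.2 CPM in ros1-3 ABA, against 224 ± 16.2 CPM in ros1-4 ABA (log2 -0.61, edgeR adjusted p = 0.00222). Of the genes for indole glucosinolates, CYP79B2 and CYP83B1 had log2 values of 0.03 and 0.06.

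A fuller list of the methionine branch was drawn up after these values were seen, so its counts are a description. Of its 23 tested genes, 8 rose in ros1-3, none fell and 15 were not called, against 1.27% of all tested genes higher and 1.52% lower. Above 0 were 21, against 8087 of 15853 genes, and the median was 0.69, against 0.005 over all tested genes. BCAT4, which takes the amino group off methionine in the first step, had 74.5, 60.0 and 64.2 CPM in ros1-3 ABA, 9.41, 22.6 and 15.1 CPM in ros1-4 ABA and 31.2, 29.7 and 16.0 CPM in wild type ABA (log2 2.11, SE 0.29, edgeR adjusted p = 0.000107). In mock it had 85.6 ± 8.51 CPM in ros1-3, 88.8 ± 13 CPM in ros1-4 and 105 ± 39.0 CPM in wild type (SD, n = 3 each; log2 -0.05), and the interaction did not pass (log2 2.16, edgeR adjusted p = 0.0779). BCAT4 overlaps AT3G19700 on the opposite strand. The other rises were IPMI2 (log2 1.12) of chain lengthening, GSTU20 (0.69), and FMO GS-OX1 (1.43) and FMO GS-OX3 (0.93), which oxidize the side chain. The regulators MYB28 and MYB29 were not called, with log2 values of -0.46 and 0.84 at 1.01 to 4.25 CPM on average. AK3, an aspartate kinase at the head of the pathway to lysine, threonine and methionine, had 85.3, 66.9 and 74.6 CPM in ros1-3 ABA, 9.7, 21.5 and 16.9 CPM in ros1-4 ABA and 31.3, 22.9 and 16.2 CPM in wild type ABA (log2 2.25, SE 0.30, edgeR adjusted p = 9.77e-05). In mock AK3 had 19.7 ± 2.57 CPM in ros1-3, 20.5 ± 4.16 CPM in ros1-4 and 22.6 ± 12.2 CPM in wild type (SD, n = 3 each; log2 -0.06). Its interaction did not pass either (log2 2.31, edgeR adjusted p = 0.154). AK3 overlaps AT3G02010 on the opposite strand. The summed level of the branch was 1200 to 1400 CPM in ros1-3 ABA, 820 to 938 CPM in ros1-4 ABA and 874 to 1070 CPM in wild type ABA. In mock 20 of the 23 genes were above 0, with a median of 0.204. There CYP79F1 was called too (log2 1.90, SE 0.44, edgeR adjusted p = 0.0279). MAM1 was not called in mock (log2 0.77, edgeR adjusted p = 0.0743). Replicate 1 of ros1-4 ABA was the lowest library in MAM1, CYP79F1, BCAT4 and AK3. Without it 4 members of the branch were called and the median was 0.43, and without ros1-3 ABA replicates 1 and 3 the counts were 4 and 5. BCAT4, MAM1, CYP79F1, CYP83A1 and AK3 kept their calls when any 1 of the 6 libraries was left out.

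**Figure D4:**
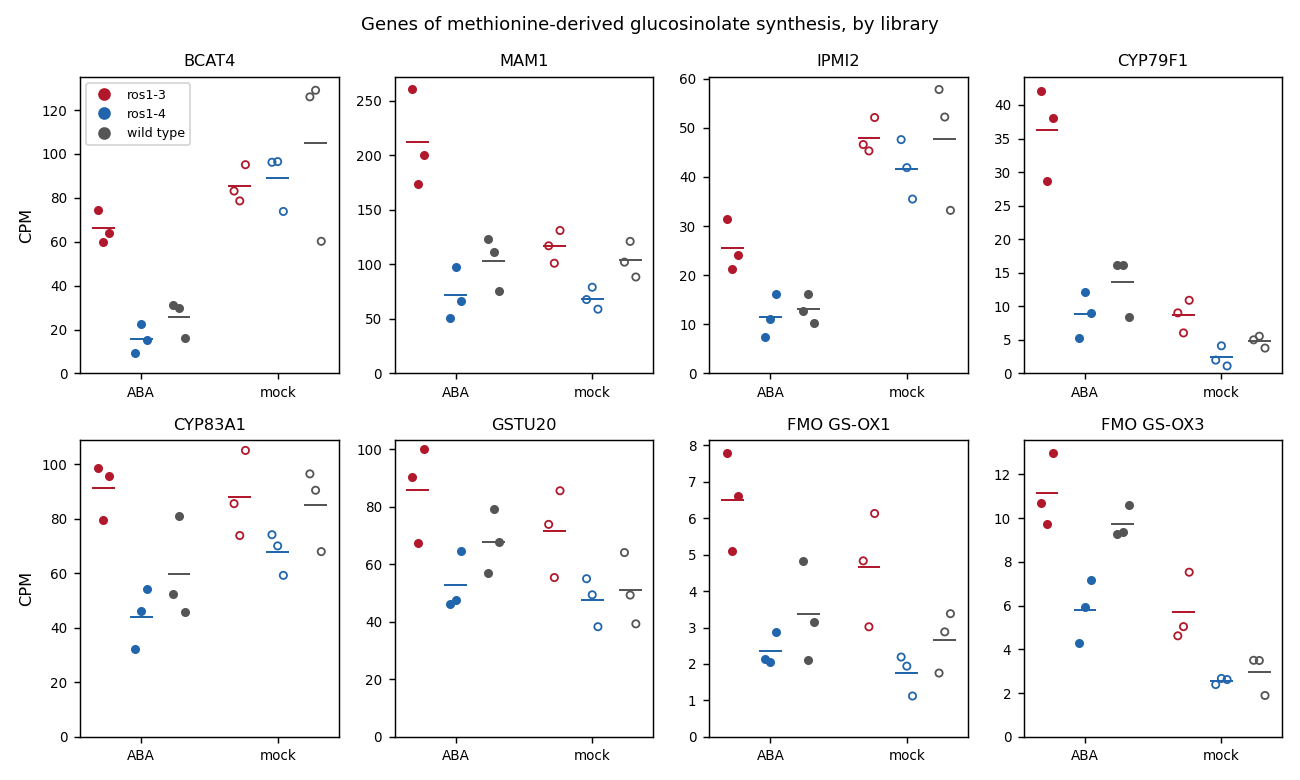
CPM of the 8 called genes of methionine-derived glucosinolate synthesis in each library, with ros1-3, ros1-4 and wild type from left to right; filled points are ABA, open points are mock and lines are means of 3. The ros1-3 ABA libraries lie above the ros1-4 ABA libraries in each gene. In mock BCAT4 averages 85.6 CPM in ros1-3 and 88.8 CPM in ros1-4. CYP79F1 averages 8.65 CPM in ros1-3 mock and 2.41 CPM in ros1-4 mock.

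Of 10 tested cell wall genes 3 fell and none rose, against 1.52% of all tested genes lower and 1.27% higher, with a median of -0.34. XTH4, which cuts and rejoins xyloglucan in expanding walls, had 496, 462 and 472 CPM in ros1-3 ABA, 854, 745 and 822 CPM in ros1-4 ABA and 763, 751 and 638 CPM in wild type ABA (log2 -0.76, SE 0.10, edgeR adjusted p = 9.33e-05). The cellulose synthases of primary walls CESA1 and CESA3, both of which overlap another gene on the opposite strand, had log2 values of -0.35 (edgeR adjusted p = 0.0196) and -0.34 (0.0246). Neither passed without ros1-3 ABA replicates 1 or 3 or ros1-4 ABA replicate 1, with adjusted p by edgeR of 0.0888, 0.0988 and 0.0957 for CESA1 and 0.119, 0.106 and 0.0903 for CESA3, which also missed without ros1-4 ABA replicate 3 (0.0553). The summed level of the list was 2210 to 2390 CPM in ros1-3 ABA and 2940 to 3480 CPM in ros1-4 ABA. Of 22 tested photosynthesis genes, 19 were below 0, against 7761 of 15853 genes, and the median was -0.142. It was -0.0665 without ros1-3 ABA replicate 3, and -0.0938 and -0.245 without ros1-4 ABA replicates 1 and 2. By edgeR 1 of the 22 was called, which is near the 2.79% of all tested genes, and by DESeq2 3. RBCS1B, a Rubisco small subunit gene in a family of near copies that may share reads, had 369 ± 21.5 CPM in ros1-3 ABA and 547 ± 41.8 CPM in ros1-4 ABA (log2 -0.57, edgeR adjusted p = 0.0276). It lost its call without ros1-3 ABA replicates 1, 2 or 3 and without ros1-4 ABA replicates 1 or 3 (edgeR adjusted p = 0.105, 0.115, 0.07, 0.104 and 0.0686).

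Of 6 tested flavonoid and anthocyanin genes, 2 rose, against 1.27% of all tested genes, and the median was 0.658, against 0.005 over all tested genes. TT8, a bHLH factor of the pathway, had 7.55, 3.76 and 9.49 CPM in ros1-3 ABA and 1.71, 1.3 and 2.88 CPM in ros1-4 ABA (log2 1.75, SE 0.33, edgeR adjusted p = 0.00443). PAP1, a MYB factor that turns on anthocyanin genes, had 7.8, 8.41 and 12.6 CPM in ros1-3 ABA and 5.42, 3.15 and 3.96 CPM in ros1-4 ABA (log2 1.19, SE 0.27, edgeR adjusted p = 0.018). Both missed the threshold without ros1-3 ABA replicate 3 (edgeR adjusted p = 0.0611 and 0.157), and PAP1 also without ros1-4 ABA replicates 2 or 3 (0.0688 and 0.0713). The enzyme gene CHS, the entry to the pathway, stood at 85.4 CPM in ros1-3 ABA and 79.9 CPM in ros1-4 ABA (log2 0.10).

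**Figure D5:**
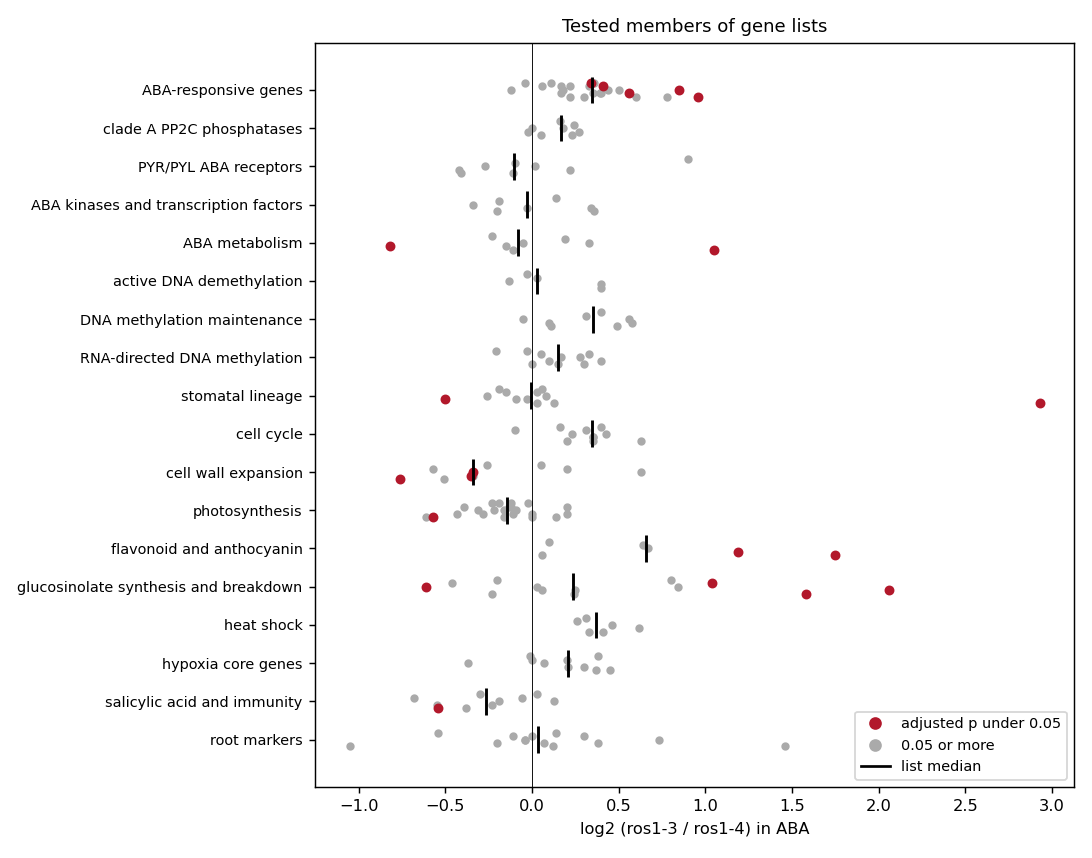
Log2 fold change of ros1-3 over ros1-4 with ABA for each tested member of 18 gene lists; red points passed an adjusted p under 0.05 and black bars are list medians. The ABA-responsive list has 23 of 25 members above 0, and the photosynthesis list 19 of 22 below 0.

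Of 10 tested genes of salicylic acid and immunity 1 fell and none rose, against 1.52% of all tested genes lower and 1.27% higher. It was WRKY70, at 23.4 ± 1.52 CPM in ros1-3 ABA and 34.2 ± 3.79 CPM in ros1-4 ABA (log2 -0.54, edgeR adjusted p = 0.0466). It missed the threshold when any 1 of the 6 libraries was left out, with an edgeR adjusted p of 0.117, 0.169 and 0.114 without ros1-3 ABA replicates 1, 2 and 3, and of 0.189, 0.0658 and 0.0565 without ros1-4 ABA replicates 1, 2 and 3. By edgeR none was called of 10 hypoxia genes (median 0.206), 6 heat shock genes (0.37), 4 jasmonate genes (0.237), 7 iron deficiency genes (0.19), 5 phosphate starvation genes (0.109), 8 clock genes (-0.0383), 14 root markers (0.0351) and the 1 tested seed gene, EM6 (0.43). DESeq2 called 1 of these, PRR7, and none of the salicylic acid list. Over all tested genes, edgeR called 2.79%. At an unadjusted p under 0.05 edgeR had 0 of the hypoxia, iron and phosphate genes, 4 of the clock genes, 2 of the heat shock genes and 1 each of the jasmonate genes, root markers and seed genes. Single libraries moved several of these medians. That of the iron list turned to -0.16 without ros1-3 ABA replicate 2 and to -0.136 and -0.0932 without ros1-4 ABA replicates 1 and 2, and reached 0.517 without ros1-4 ABA replicate 3. The hypoxia median ran from 0.0914 without ros1-3 ABA replicate 3 to 0.369 without ros1-4 ABA replicate 3. The heat shock median ran from 0.172 without ros1-4 ABA replicate 1 to 0.672 without ros1-4 ABA replicate 3. The phosphate median was 0.0044 without ros1-3 ABA replicate 2, and the jasmonate median was 0.36 without ros1-3 ABA replicate 1. The clock and root medians ranged from -0.087 to -0.0054 and from -0.0735 to 0.162 when 1 library was left out. All 6 heat shock genes were above 0, and HSP90.1 had 79.9 ± 7.55 CPM in ros1-3 ABA and 60.0 ± 12.6 CPM in ros1-4 ABA (log2 0.41, edgeR adjusted p = 0.105), which passed without ros1-4 ABA replicate 3 (0.037). The clock gene PRR7 had 245 ± 18.5 CPM in ros1-3 ABA and 196 ± 4.11 CPM in ros1-4 ABA (log2 0.32), with an adjusted p of 0.053 by edgeR and 0.0155 by DESeq2. Among root markers the nitrate transporter NRT2.1 had 4.39 ± 1.17 CPM in ros1-3 ABA and 9.08 ± 1.71 CPM in ros1-4 ABA (log2 -1.05, edgeR adjusted p = 0.189), and it passed in a fit of the 6 ABA libraries of the alleles alone (edgeR adjusted p = 0.0294). RAB18, ABI1, DMS3 and CHS overlap a gene on the opposite strand, so part of their reads may belong to it.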

How the data were processed

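Each deposited file holds the authors' unnormalized read count for every transcript model. The submitters' processing notes list HTSeq 0.6.1, TopHat2 2.0.8, Trim Galore 0.2.8, SAMtools and the TAIR10 genome. The sources used here do not state the strand setting of the counting. Models were summed per locus; reads shared by several models of a locus fall in a summary row, so loci with several models are understated. Rows that name no gene (36.7% to 44.5% of each file) were left out. All 18 libraries were fitted together with edgeR 4.0.16 (R 4.3.3), with TMM, filterByExpr and 1 coefficient per group, leaving 12 residual degrees of freedom. SE is the absolute log2 fold change over the square root of F. Steps were tested on simulated counts. DESeq2 1.42.0 and other alternatives are given below. Members and the 25 gene lists were chosen with earlier results of these data known. Named genes were ROS1, NIC3, EPF2 and TMM, up to 15 per direction by fold among called, non-overlapping genes with a mean log2 CPM of at least 1, up to 5 per direction for the interaction by the same rule without the overlap condition, and up to 4 called or 2 other members per list. Symbols and positions are from RefSeq TAIR10.1, which matched 31912 of 32399 loci. Replicates were checked for duplicates by their counts, and no pair agreed within sampling noise.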

Additional observations from a re-analysis of the deposited data

Results flagged for a closer look

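ZW9 was the 1 gene that the main edgeR fit called for the interaction of allele and hormone. Genes not called there are not shown to lack an interaction. The log2 difference of differences was 1.36 (edgeR adjusted p = 0.00557), and it was 1.23 to 1.45 when any 1 of the 12 libraries of the alleles was left out, with the call kept each time.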

How the results depend on the processing

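The ABA count of 442 was 431 with DESeq2 size factors, 629 with no filter, 420 with DESeq2, 521 in a fit of the 6 libraries alone, 385 on single-model loci and 267 with the percentage of multiply aligned reads as a covariate; without single libraries it was 199 to 351. The share of calls higher in ros1-3 stayed between 41.0% and 50.8%. The chromosome 2 count of 135 was 74 to 105 without single libraries and 94 with the covariate. The mock count of 201 was 320 with no filter, 80 with the covariate and 116 to 224 without single libraries. The interaction count of 1 was 7 with no filter, 8 with DESeq2, 2 with the covariate and 1 to 3 without single libraries. Against wild type, the ros1-3 count was 138 to 302 without single libraries; the ros1-4 count of 108 was 202 with no filter, 44 with the covariate and 65 to 104 without single libraries. ABF3 turned to -0.0786 with the covariate, under which 10 of 78 named genes lost their ABA call: TMM, AT4G33720, AT1G48690, AT5G45840, NAC019, NCED2, RBCS1B, CESA1, CESA3 and WRKY70. Same-numbered ABA libraries of the alleles correlated at 0.0631, -0.0269 and 0.0896, so the numbers were not taken as pairs; with the replicate block 362 genes were called with ABA, 173 in mock and 2 for the interaction, and NCED2 and WRKY70 missed the threshold. The causes were not tested. Depth limits low genes most in ros1-3.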
